A study of Mus musculus with 2 samples.

Results

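Neutrophils carry their antimicrobial proteins in granules that are filled at different steps of their development, and the genes for these proteins were followed here in the newborn mouse liver. The 10 genes were chosen by name, as known granule and alarmin genes. They are Mpo, Elane, Prtn3 and Ctsg of the primary granule, Ltf, Camp, Ngp and Lcn2 of the secondary granule, and the alarmins S100a8 and S100a9, out of 43346 Ensembl genes in the gene tables. All 10 were found by symbol, and all 10 reached a TPM (a level per transcript length, scaled to a fixed total per library) of 1 or more in both livers. Total RNA was measured in the livers of 2 pups of the B6NCrl strain, pup 2 and pup 1, at age 0 days after birth. Both were born to 1 dam, the labels name no treatment, their sex was not collected, and each library was made from 1 liver and 10 ng of RNA longer than 200 nt. They form 1 group of 2 littermates, so nothing was compared between conditions, and the spread given is that between these 2 animals. The libraries held 41443673 expected counts (reads estimated per gene) in pup 2 and 42124582 in pup 1.

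Granulocytes arise from progenitors, and in the fetus and around birth the liver is a site of blood formation. At the promyelocyte step the cell makes the contents of the primary, or azurophil, granules, which include myeloperoxidase and the neutrophil serine proteases. Later, at the myelocyte and metamyelocyte steps, these genes are shut off and those of the secondary, or specific, granules are switched on, among them lactoferrin and the cathelicidin. S100a8 and S100a9 encode the subunits of calprotectin, a calcium-binding complex that fills the cytosol of maturing neutrophils and is also made by monocytes. The ratio of primary to secondary transcripts is therefore often read as a measure of maturation stage. The transcription factors PU.1, RUNX1 and the C/EBP family act on many of these genes.

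The DNA just before the start of 5 genes is shown, as it lies in the stretch searched for core motifs of these factors. These genes cover the 3 classes. All 10 genes matched the RefSeq promoter table (GRCm38.p6), and each printed stretch ends right before the annotated start of the gene's leading transcript or, for S100a9, of the minor transcript S100a9-202. Capitals mark matches, on either strand, to GAGGAA (the core of PU.1 sites), TTNCNNAA (a loose form of C/EBP sites, N standing for any base), TGTGGT (RUNX) or TATAAA (the TATA box). Elane (chr10:79886062-79886246) and Prtn3 (chr10:79879417-79879613) lie on the plus strand next to each other, Ngp (chr9:110419558-110419746) is on the plus strand, S100a8 (chr3:90668821-90668977) is on the plus strand and S100a9 (chr3:90695722-90695971) on the minus strand.

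Elane: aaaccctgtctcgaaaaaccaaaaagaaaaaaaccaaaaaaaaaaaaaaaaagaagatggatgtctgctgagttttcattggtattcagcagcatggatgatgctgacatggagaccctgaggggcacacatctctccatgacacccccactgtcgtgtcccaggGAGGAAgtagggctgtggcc

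Prtn3: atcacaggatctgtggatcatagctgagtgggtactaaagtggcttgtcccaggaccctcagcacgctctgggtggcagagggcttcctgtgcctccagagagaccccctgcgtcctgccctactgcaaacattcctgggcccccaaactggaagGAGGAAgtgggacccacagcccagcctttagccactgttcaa

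Ngp: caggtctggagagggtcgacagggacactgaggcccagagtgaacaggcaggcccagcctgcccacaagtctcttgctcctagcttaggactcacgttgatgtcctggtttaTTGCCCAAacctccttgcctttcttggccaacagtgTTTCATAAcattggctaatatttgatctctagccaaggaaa

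S100a8: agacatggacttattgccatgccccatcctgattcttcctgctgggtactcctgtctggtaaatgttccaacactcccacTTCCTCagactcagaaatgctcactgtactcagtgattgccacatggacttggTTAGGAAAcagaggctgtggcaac

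S100a9: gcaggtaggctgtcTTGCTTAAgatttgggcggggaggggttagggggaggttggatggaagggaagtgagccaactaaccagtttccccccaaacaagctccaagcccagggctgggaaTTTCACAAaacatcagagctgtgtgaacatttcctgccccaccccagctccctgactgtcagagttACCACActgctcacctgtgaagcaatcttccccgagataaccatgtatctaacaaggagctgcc

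Elane and Prtn3 each held 1 GAGGAA on their own strand within these stretches, with its first base at position -20 for Elane and -42 for Prtn3, counted back from the printed end. In the whole window of 250 bases before the RefSeq start, GAGGAA was found in 7 of 10 genes, namely all 4 primary granule genes and Ltf, Lcn2 and S100a8, against 23.3% of 32851 promoters. TTNCNNAA was found in 5 of 10 (Ltf, Ngp, Lcn2, S100a8 and S100a9, thus in no primary granule gene), against 36.8% of promoters. TGTGGT was present in Ctsg and S100a9, against 14% of promoters, and TATAAA in Ctsg and S100a8, against 12.4%. No match of the 4 motifs was found in the window of Camp, of which only 89 bases lie before its annotated transcript start. The windows of Elane, Prtn3, Ngp, Lcn2 and S100a8 also run past that start into the transcript. The GAGGAA of Lcn2 and the TATAAA of S100a8 lie in that part. The window of Mpo ends upstream of its leading transcript Mpo-203. All these matches are of letters and no measure of binding.

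The 4 primary granule genes were all well expressed and spanned a 6.93-fold range of levels. Mpo (ENSMUSG00000009350.9, chr11:87793581-87804413, plus strand, GRCm38) encodes myeloperoxidase, which makes hypochlorous acid, and stood at 219.79 TPM in pup 2 and 242.63 in pup 1. Elane (chr10:79886247-79888215, plus strand) encodes neutrophil elastase and reached 166.72 TPM in pup 2 and 192.92 in pup 1. Prtn3 (chr10:79874476-79883174, plus strand) encodes proteinase 3 and had 111.17 TPM in pup 2 and 108.47 in pup 1. The lowest was Ctsg (chr14:56099881-56102574, minus strand), the gene of cathepsin G, with 32.72 TPM in pup 2 and 33.93 in pup 1. The order Mpo, Elane, Prtn3, Ctsg was the same in both livers, and no neighbours in it overlapped between animals. Over both livers Mpo averaged 231.2 ± 16.2 TPM, Elane 179.8 ± 18.5, Prtn3 109.8 ± 1.91 and Ctsg 33.33 ± 0.856 (SD, n = 2). Mpo shares its locus with an antisense gene, Gm11505, at 1.11 TPM in pup 2 and 1.27 in pup 1, and whether the counting used strand is not given in the sources used here.

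Secondary granule genes reached higher levels, led by Ngp and Camp. Ngp (chr9:110419747-110423012, plus strand), which encodes neutrophilic granule protein, stood at 941.21 TPM in pup 2 and 944.13 in pup 1. Camp (chr9:109847379-109849617, minus strand) encodes the cathelicidin, a precursor of an antimicrobial peptide, and had 783.76 TPM in pup 2 and 759.98 in pup 1. Lcn2 (chr2:32384633-32388252, minus strand) encodes lipocalin 2, which withholds iron by binding bacterial siderophores, and was at 357.68 TPM in pup 2 and 367.87 in pup 1. The lowest of this class was Ltf (chr9:111019271-111042767, plus strand), the gene of the iron-binding protein lactoferrin, with 155.93 TPM in pup 2 and 170.05 in pup 1. Their order too was the same in both animals, with no overlap between neighbours. The means were 942.7 ± 2.06 TPM for Ngp, 771.9 ± 16.8 for Camp, 362.8 ± 7.21 for Lcn2 and 163 ± 9.98 for Ltf (SD, n = 2). Ltf was below Mpo and Elane in both livers although it is a secondary granule gene.

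The alarmins were the most abundant members. S100a8 (chr3:90668978-90670035, plus strand) had 4606.32 TPM in pup 2 and 4438.27 in pup 1, and ranked 27 among all Ensembl genes by mean TPM. S100a9 (chr3:90692632-90695721, minus strand) had 2318.23 TPM in pup 2 and 2189 in pup 1, with rank 57. The S100a8 level was 1.99 times that of S100a9 in pup 2 and 2.03 times in pup 1, so the ratio of the subunits' transcripts was nearly the same in the 2 animals. S100a8 averaged 4522 ± 119 TPM and S100a9 2254 ± 91.4 (SD, n = 2). The other members ranked from 119 for Ngp to 2699 for Ctsg.

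**Figure D1:**
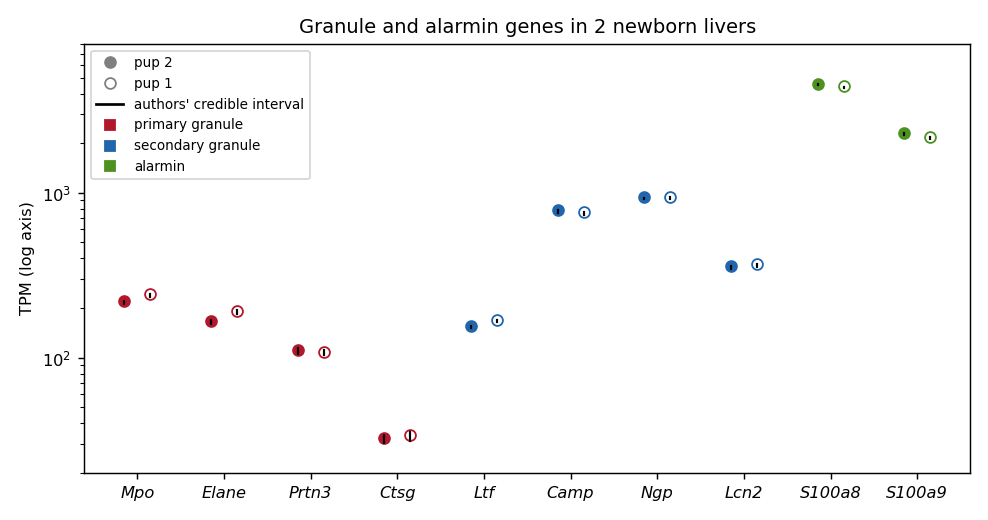
TPM of the 10 members in both livers on a log axis, with filled points for pup 2, open points for pup 1 and black lines for the authors' credible intervals, which are mostly shorter than the symbols. The alarmins stand highest, Ngp and Camp follow, and Ctsg is lowest at about 33.33 TPM.

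Summed over the 10 genes, the members held 0.9694% of all TPM in pup 2 and 0.9447% in pup 1, a mean of 0.957% ± 0.0174 (SD, n = 2). By expected counts, which weight long transcripts more, they held 0.4414% in pup 2 and 0.4321% in pup 1. The alarmins alone made up 71.4% of the members' TPM in pup 2 and 70.2% in pup 1. Secondary granule genes accounted for 23.1% in pup 2 and 23.7% in pup 1, and primary granule genes for 5.47% in pup 2 and 6.12% in pup 1. In whole liver, fewer cells of a type and less RNA per cell cannot be told apart, so these shares are no counts of cells.

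Primary set against secondary granule genes, the summed TPM were 530.4 and 2239 in pup 2, and 577.9 and 2242 in pup 1. Secondary transcripts were thus 4.22 times as abundant as primary ones in pup 2 and 3.88 times in pup 1. The log2 ratio of primary over secondary was -2.08 in pup 2 and -1.96 in pup 1, a mean of -2.02 ± 0.086 (SD, n = 2). With 2 livers an exact sign permutation cannot go below a p of 0.5, and no test was made. Counted in reads in place of TPM, the mean log2 ratio was -1.51, and without Lcn2, which hepatocytes can make, it was -1.76.

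Gene by gene, 14 of the 16 pairs of a primary with a secondary granule gene had the primary gene lower in both livers. Both exceptions had Ltf as the secondary gene. Mpo was 1.41 times Ltf in pup 2 and 1.43 times in pup 1, and Elane was 1.07 times Ltf in pup 2 and 1.13 times in pup 1. The pair furthest apart was Ctsg with Ngp, at a mean log2 ratio of -4.82 ± 0.0339 (SD, n = 2), and the median over the 16 pairs was -2.07. The place of the stages relative to each other thus depends on the genes chosen for them, from Ltf at one end to Ngp at the other. Primary granule genes were also lower than the alarmins, with a mean log2 ratio of -3.61 ± 0.132, as were the secondary ones, with -1.6 ± 0.0463 (SD, n = 2).

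**Figure D2:**
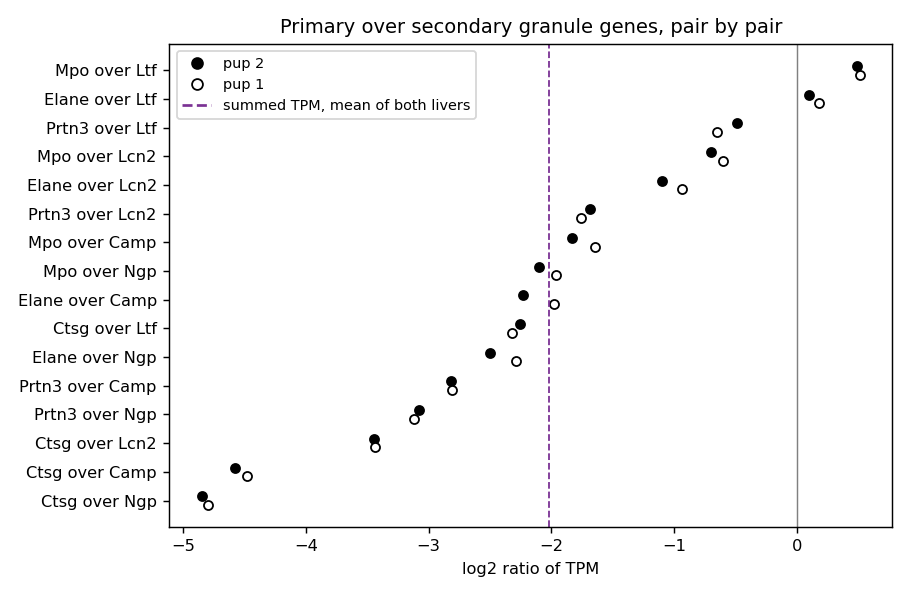
Log2 ratio of TPM for each of the 16 pairs of a primary over a secondary granule gene, with filled points for pup 2 and open points for pup 1, and a dashed line at the ratio of the summed TPM. Of the pairs, 14 lie below 0 in both livers, and Mpo over Ltf and Elane over Ltf lie above it.

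Between the littermates the members differed little. None of the 10 was at least 2-fold apart, which was asked as a log2 ratio of TPM + 1 of 1 or more in size together with credible intervals that do not overlap, and which 80 of 12711 genes, or 0.629%, met. Of those genes, 72 were higher and 8 lower in pup 2. At a share of 0.629% over all tested genes, 0 of 10 does not set the members apart. Called anew after scaling by the ERCC spike-ins, synthetic RNAs added to each sample, 77 genes met the rule, 60 higher and 17 lower. By this comparison of 2 animals the members' log2 ratios ran from -0.21 for Elane to 0.08 for S100a9. The SD of the log2 ratio over all genes was 0.19 at 100 to 1000 TPM and 0.13 at 1000 TPM or more. Elane, at 13.6% lower TPM in pup 2, had the ratio of largest size in TPM, -0.21, which with TMM-scaled counts was -0.14 and with spike-in scaling -0.45.

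In TPM, 6 members were lower in pup 2 (Mpo, Elane, Ctsg, Ltf, Ngp and Lcn2) and 4 were higher (Prtn3, Camp, S100a8 and S100a9), but Ctsg, Ngp and Lcn2 turned to higher with TMM-scaled counts (a scaling by trimmed means of the genes' ratios), and all 4 higher ones turned to lower with spike-in scaling. Spike-in scaling moved the median log2 ratio of all tested genes to -0.26, against -0.05 in TPM, and rested on 190 spike-in counts in pup 2 and 163 in pup 1. It applied the same factor, 0.844 for pup 2, to every gene. The counting error of that factor was not computed, so the changes of sign it brought may lie within that error. Over all tested genes, 63.0% were lower in pup 2 in TPM. Credible intervals were apart for 5 of the 10 members, against 28.2% of the 6005 genes with a mean TPM of 10 or more. These were Mpo, Elane and Ltf, lower in pup 2 under every scaling tried, and S100a8 and S100a9. The alarmins were higher in pup 2 in TPM and with TMM but lower with spike-in scaling. The 2 shares are not matched in level. Of the 6005 genes, 4929 had a mean TPM under 100, as did Ctsg alone among the members. For Elane the ratio of counts, each divided by its library's total, was 0.884 (exact 95% interval 0.851 to 0.919) on 4902 counts in pup 2 and 5635 in pup 1. For Ctsg, the member with the fewest reads, it was 0.987 (0.906 to 1.07) on 1058 counts in pup 2 and 1090 in pup 1, so no difference was detectable at this depth.

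**Figure D3:**
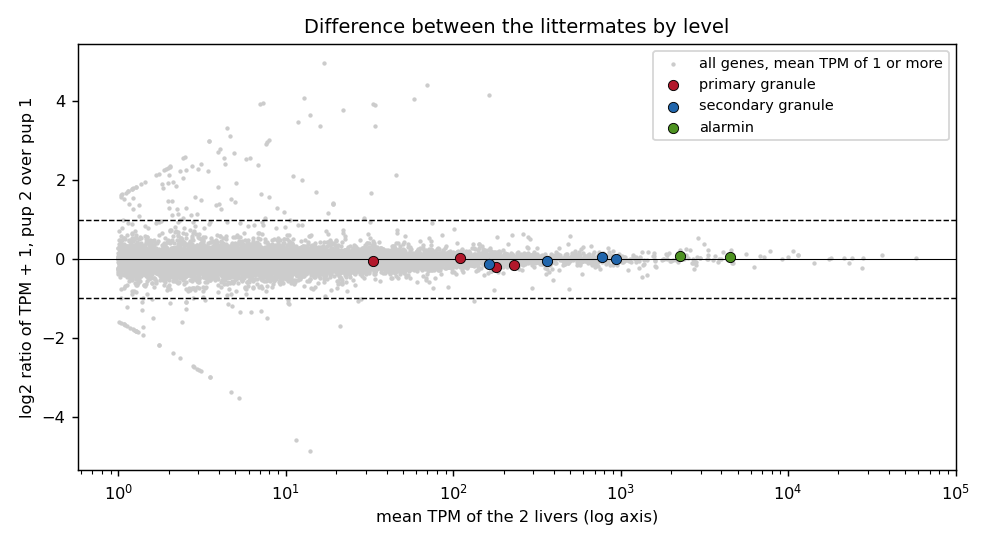
Log2 ratio of TPM + 1, pup 2 over pup 1, against the mean TPM on a log axis for the 12711 genes with a mean TPM of 1 or more (grey) and the 10 members (coloured by class); dashed lines mark 2-fold. In TPM the members lie between -0.21 and 0.08, with 6 below and 4 above 0; 3 of the 6 (Ctsg, Ngp, Lcn2) turn to higher with TMM scaling and all 4 turn to lower with spike-in scaling.

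At the level of transcripts, 6 members had 1 annotated transcript and 4 had more, and the 10 genes held 26 transcripts in all. For each gene the deposited IsoPct gives a transcript's percent of the gene's TPM. Prtn3 was the member divided most evenly. Its coding transcript Prtn3-201 held 55.38% of Prtn3 TPM in pup 2 and 57.89% in pup 1, and a transcript annotated as a retained intron, Prtn3-204, held 42.84% in pup 2 and 38.89% in pup 1. By level, Prtn3-201 stood at 61.57 TPM in pup 2 and 62.79 in pup 1, and Prtn3-204 at 47.62 TPM in pup 2 and 42.18 in pup 1. The higher gene level of Prtn3 in pup 2 in TPM, which spike-in scaling turned to lower, was thus not seen in its coding transcript, and the credible intervals of both transcripts overlapped between the livers. Prtn3-204 is 786 nt long, with 3 exons, against 1025 nt and 5 exons for Prtn3-201, and the 2 end at the same base, and reads from what they share were divided between them by the authors' counting model.

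Mpo was carried mainly by the coding transcript Mpo-203 of 2409 nt, with 80.71% in pup 2 and 81.65% in pup 1. A short transcript, Mpo-205 of 640 nt with 2 exons, held 14.95% of Mpo TPM in pup 2 and 12.98% in pup 1, but 3.96% of Mpo counts in pup 2 and 3.4% in pup 1, since TPM divides by length. S100a9-201 held 88.41% in pup 2 and 87.67% in pup 1, and the nearly equal S100a9-202, which begins 10 bases further upstream, the rest. Lcn2-201 held 98.76% in pup 2 and 98.72% in pup 1. With the leading transcript of each gene alone, an alternative added after the data had been seen, the log2 ratio of primary over secondary averaged -2.27, because Prtn3 and Mpo lose most by this count.

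**Figure D4:**
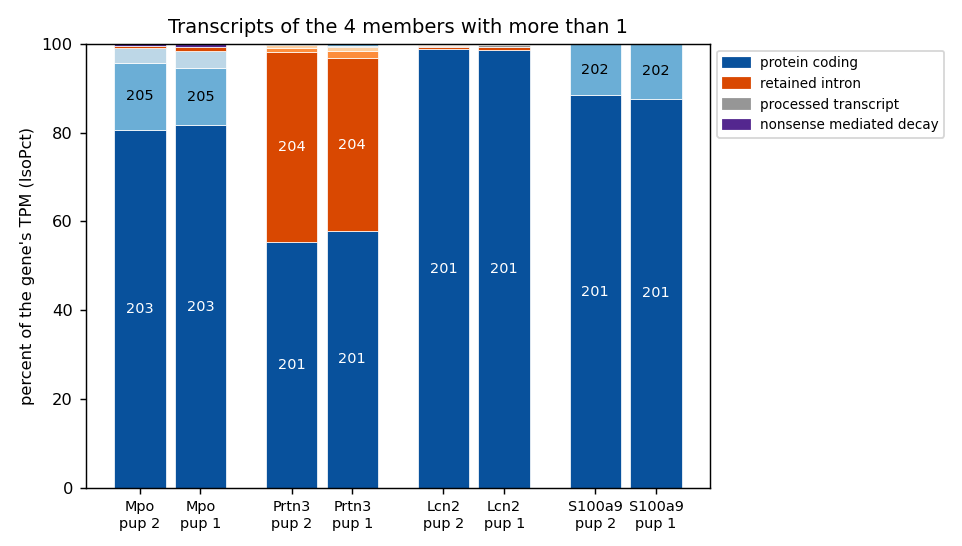
Stacked bars of the percent of each gene's TPM (IsoPct) held by its transcripts, for the 4 members with more than 1, in pup 2 and pup 1. Prtn3 stands out by a retained-intron transcript at 42.84% in pup 2 and 38.89% in pup 1, whereas Lcn2 is nearly all Lcn2-201.

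The genes next to the members were mostly low. Prtn3 and Elane lie 3072 bases apart, and Cfd, the gene of complement factor D on the other side of Elane, was listed at 0 in both livers. Lpo, which encodes lactoperoxidase and follows Mpo, had 0.01 TPM in pup 2 and 0 in pup 1. Beside Ctsg, the granzyme gene Gzme was listed at 0 in both livers, and the basophil protease gene Mcpt8 had 11.34 TPM in pup 2 and 16.43 in pup 1. Camp, Ngp and Ltf lie within 1.2 Mb of chromosome 9, and the 28 other protein-coding genes between them had a median of 1.51 TPM, with none at 100 TPM or more. S100a8 and S100a9 lie 22596 bases apart, and S100a7a beside S100a8 was listed at 0 in both livers. Leaving aside members that neighbour each other, the highest protein-coding neighbour was 1110008P14Rik beside Lcn2, at 26.19 TPM in pup 2 and 28.29 in pup 1.

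Other genes of the primary granule and the promyelocyte were present as well. All 6 were detected, with a summed 246 TPM in pup 2 and 246.9 in pup 1, and 3 were lower and 3 higher in pup 2 in TPM, against 1 lower and 5 higher with TMM-scaled counts and 5 lower and 1 higher with spike-in scaling. Their median log2 ratio in TPM was -0.0026, against -0.05 over all genes. Srgn, the gene of the proteoglycan serglycin that packs granule proteins, had 95.68 TPM in pup 2 and 94.39 in pup 1. Ctsc, whose product activates the granule serine proteases, had 55.44 TPM in pup 2 and 58.33 in pup 1. Of the other secondary and tertiary granule genes all 10 were detected, and 8 were lower in pup 2 in TPM, 7 with TMM-scaled counts and 10 with spike-in scaling. Their median log2 ratio in TPM was -0.12, and 63.0% of all tested genes were lower in pup 2. With TMM-scaled counts the medians were -0.09 for the list and 0.0058 for all genes. With spike-in scaling they were -0.35 and -0.26. Pglyrp1, a peptidoglycan recognition protein, stood at 104.02 TPM in pup 2 and 103.16 in pup 1, and Chil3, a chitinase-like protein, at 89.53 TPM in pup 2 and 96.75 in pup 1. No gene of these lists reached the level of Camp or Ngp. The other secondary and tertiary granule genes summed to 388.9 TPM in pup 2 and 403.9 in pup 1, more than the other primary ones. By median the order was the reverse of that of the members. The medians were 16.38 TPM in pup 2 and 19.11 in pup 1 for the secondary and tertiary list, against 40.73 and 41.62 for the primary list.

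Genes of late neutrophil maturation had the lowest median of the neutrophil granule and maturation lists. Of 14, 12 were detected, with a median of 3.525 TPM in pup 2 and 4.22 in pup 1, and 12 of the 14 were lower in pup 2 in TPM, 11 with TMM-scaled counts and 14 with spike-in scaling. Their median log2 ratio in TPM was -0.22, against -0.05 over all tested genes, of which 63.0% were lower in pup 2. With TMM-scaled counts the medians were -0.15 for the list and 0.0058 for all genes. With spike-in scaling they were -0.39 and -0.26. Retnlg led the late maturation genes, at 69.45 TPM in pup 2 and 80.96 in pup 1. The chemokine gene Ccl6 followed, at 40.17 TPM in pup 2 and 47.8 in pup 1. Mmp25 and Clec4d stayed below 1 TPM in both livers. The 6 NADPH oxidase genes, whose complex makes the superoxide from which myeloperoxidase draws its peroxide, were all detected. Cyba led with 177.37 TPM in pup 2 and 185.67 in pup 1, and its partner Cybb had 20.06 TPM in pup 2 and 20.77 in pup 1. Their ratio of 8.84 in pup 2 and 8.94 in pup 1 is between genes whose products pair in the membrane.

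**Figure D5:**
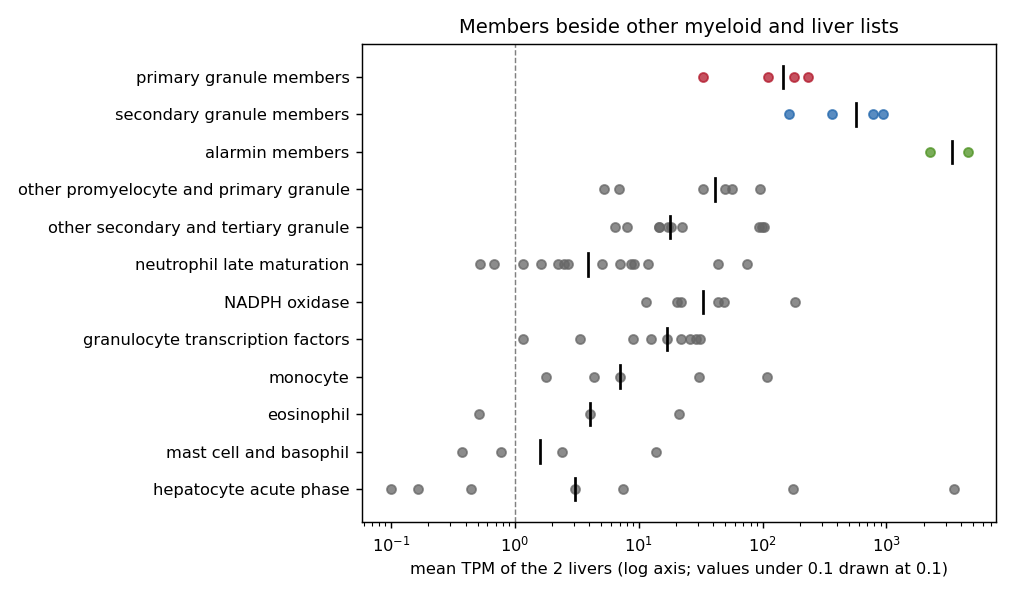
Mean TPM over both livers on a log axis for each gene (points) of the 3 member classes and of 9 other lists, with a vertical bar at each list's median and a dashed line at 1 TPM. The medians of secondary granule members and alarmins lie to the right of all other medians shown, and genes of late maturation have a median under 10 TPM.

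Other cells of the liver can express some of these genes. Monocytes make S100a8 and S100a9, and all 5 monocyte markers were detected, with a sum of 148.5 TPM in pup 2 and 155.9 in pup 1, most of it from Ly6c2 at 106.54 TPM in pup 2 and 109.91 in pup 1. Hepatocytes can raise Lcn2 in an acute-phase response. Of the 7 acute-phase genes 4 were detected, and Saa1, Saa2 and Orm2 were below 1 TPM in both livers, while Hp stood at 3509 TPM in pup 2 and 3576.37 in pup 1. Saa3, which macrophages also make, was the 1 gene of all the lists at least 2-fold apart in TPM, at 10.41 TPM in pup 2 and 4.55 in pup 1, and was under 2-fold by this rule with either scaling alternative. With spike-in scaling Hamp, the gene of the iron hormone hepcidin, was the 1 listed gene past the rule instead, lower in pup 2, at 129.04 TPM in pup 2 and 224 in pup 1 before scaling. The part of monocytes and hepatocytes in the members' levels was not tested. Epx, the eosinophil peroxidase gene and a relative of Mpo, had 0.57 TPM in pup 2 and 0.46 in pup 1. Other markers of eosinophils, Prg2 and Prg3, were detected, with Prg2 at 19.2 TPM in pup 2 and 22.94 in pup 1. Hepatocyte markers were those of a liver, with Alb at 13681.02 TPM in pup 2 and 14714.93 in pup 1.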

How the data were processed

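Total RNA-seq of 2 newborn livers was read from the deposited gene and transcript tables, which their deposited notes place on mm10 with GENCODE M4; aligner, counter, strand use and priming: not given in the sources used here. The authors deposited expected counts, in which reads shared by several genes are divided, so some are not whole. The deposited TPM values divide reads by an effective length (99 nt less than the length) and are scaled over all rows. Credible bounds, a signal in TPM, were deposited by the authors around a posterior mean at a level the file headers do not give, and the TPM of S100a8, S100a9, Ngp and Ltf lies above its upper bound in both livers. IsoPct was deposited by the authors as a percent of the gene's TPM.

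Symbols and coordinates came from GENCODE M21 (GRCm38) by Ensembl identifier. Members and lists were chosen with earlier results of these data known. The text names all 10 members, genes beside them, and from 17 lists (111 genes) up to 4 genes highest in TPM, those below 1 TPM in both livers and those at least 2-fold apart. A listed gene is not reported here. Levels are means and SD (n = 2), and ratios of the livers are on log2(TPM + 1), which understates changes of low genes. Alternatives were scaling, pseudocount, filter, unit, members and leaving out a liver. TMM factors came from edgeR 4.0.16 in R 4.3.3, and the rest used pandas 2.3.3, scipy 1.17.1, numpy 2.4.6 and, for figures, matplotlib 3.10.9 under Python 3.11.15. Only the 2-fold rule and the exact interval of the count ratio were tested on simulated counts. These had counting error alone, and simulated intervals stood in for the deposited ones. Intervals and floors cover counting error only: where no read was counted, 3 could have been missed, which is a CPM of 0.0724 in pup 2 and 0.0712 in pup 1.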

Additional observations from a re-analysis of the deposited data

How the results depend on the processing

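The log2 ratio of primary over secondary granule genes, -2.02 in TPM, stayed below 0 under every alternative run. Each alternative used members only, and the medians of the other granule genes lay in the reverse order. The members' ratio was -1.51 by expected counts, -1.76 without Lcn2 and -2.27 with leading transcripts only (added after the data had been seen). It ran from -2.08 to -1.96 with either liver left out. The members' share of 0.957% of TPM was 0.437% by expected counts and 1.12% among Ensembl genes without adult globins, and 0.945% to 0.969% with either liver left out. All 10 members were detected, and 0 of 10 were at least 2-fold apart, under each alternative, 1.5-fold included. Over all tested genes the share was 0.629% at 2-fold, and at 1.5-fold it was not computed. The 80 genes at least 2-fold apart became 22 at a mean TPM of 10 or more, and lay between 76 and 112 under the other alternatives. The members' ratios between the livers moved most with scaling: 3 changed sign with TMM and 4 with the spike-ins. The cause was not tested. Levels of single members in CPM in place of TPM were not run as an alternative. With 1 group of 2 livers, no result has a replicate check between conditions. No paired analysis was possible because there is only 1 group.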

Other observations

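Inhibitors of serine proteases were among the abundant transcripts of this tissue. All 9 measured were detected, with a summed 12960 TPM in pup 2 and 13120 in pup 1, against 166.72 TPM in pup 2 and 192.92 in pup 1 for Elane, the highest of the 3 granule serine protease genes. Most came from the Serpina1 family of alpha-1 antitrypsin genes, led by Serpina1e at 3718.77 TPM in pup 2 and 3941.32 in pup 1; these are near-identical copies, so the division of reads among them is uncertain. Serpinb1a, an inhibitor made inside neutrophils, had 35.65 TPM in pup 2 and 36.63 in pup 1. Among receptors of granule and alarmin proteins, 4 of 6 were detected. Bsg, which binds S100A9, had 852.69 TPM in pup 2 and 943.36 in pup 1, and Lrp1 had 38.69 and 42.88. Low levels were found for Tlr4, at 2 TPM in pup 2 and 1.78 in pup 1, and Ager, at 1.69 and 1.23. Slc22a17 and Lrp2, which bind lipocalin 2, stayed below 1 TPM in both livers.

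All 9 granulocyte transcription factors were detected. Cebpa, which starts granulocyte development and is also high in hepatocytes, had 27.79 TPM in pup 2 and 16.37 in pup 1, and Cebpb had 37.96 TPM in pup 2 and 24.13 in pup 1, both with credible intervals apart but less than 2-fold. Cebpd went the other way, with 14.93 TPM in pup 2 and 18.75 in pup 1 and intervals apart. No others of the 9 factors had intervals apart, so these were 3 of the 6 at 10 TPM or more in both livers. Among all genes with a mean TPM of 10 or more, the share was 28.2%. Cebpe, which the secondary granule genes need, had 13.09 TPM in pup 2 and 12.04 in pup 1, with overlapping intervals. Of the 13 other S100 genes 8 were detected, led by S100a11 at 287.8 TPM in pup 2 and 295.31 in pup 1, so S100a8 was 16 times as high in pup 2 and 15 times in pup 1.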
